A study of Mus musculus with 4 samples.

Results

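The genes described here are 7 class I histocompatibility genes of the mouse Q region (the Qa region of chromosome 17): H2-Q1, H2-Q2, H2-Q4, H2-Q5, H2-Q6, H2-Q7 and H2-Q10. They were selected by gene symbol, as 7 of the 23238 symbols in the count files, and all 7 passed the filter on low counts that left 16270 genes tested. The family was chosen because H2-Q10 was 1 of the 2 genes past the threshold in the comparison of high with normal glucose, so the members' differences between those groups are given as a description and support nothing further. RNA was sequenced from mouse (Mus musculus) cells labelled cavernous endothelial cells, taken from the corpus cavernosum, the erectile tissue of the penis, and cultured with serum and heparin. The normal glucose group had 2 libraries (replicates 1 and 2), the high glucose group also had 2 (replicates 2 and 4), and the glucose treatment of both lasted 72 hours. The labels give neither the glucose concentrations nor the strain, age or number of the mice, and they do not say whether the libraries of a group came from separate cultures, so every p-value rests on a spread between libraries that may be technical.

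Class I molecules are cell-surface proteins made of a heavy chain and the light chain beta-2 microglobulin (B2m), and they hold a peptide from inside the cell for inspection by T cells and natural killer cells. In the mouse the classical heavy chains are H2-K1, H2-D1 and H2-L, and the Q, T and M regions carry further, non-classical heavy chains that vary in number and sequence between strains. Among the Q genes, H2-Q10 encodes a secreted heavy chain known chiefly as a serum protein made by the liver. H2-Q7, with its near copies H2-Q6, H2-Q8 and H2-Q9, encodes the Qa-2 molecule, much of which is held on the membrane by a lipid anchor, while the products of H2-Q1, H2-Q2, H2-Q4 and H2-Q5 are less well characterised. Interferon and NF-kB raise class I genes through short elements in their promoters, and the transactivator Nlrc5 acts on the same promoters.

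Totals ran from 46571770 to 74971589 counts per library. No library was a copy of another, since chi-square divided by its degrees of freedom was at least 62.8 for every pair, where sampling noise alone gives a value near 1. Normal glucose replicate 2 stood apart, correlating with normal glucose replicate 1 at a Pearson r of 0.985 over the log2 CPM of tested genes, whereas normal glucose replicate 1 had 0.992 and 0.993 with the high glucose libraries (genes are not independent replicates). The endothelial label had little support among its markers. The 10 endothelial markers summed to 12.2 and 15.3 CPM (counts scaled to library size, after TMM) in normal glucose and to 11.9 and 12.3 CPM in high glucose, with Pecam1 between 2.32 and 3.58 CPM and Cldn5 at 0 counts in 3 libraries. The 8 fibroblast markers summed to between 9526 and 11428 CPM in every library. In such bulk samples, fewer cells of a type and less RNA per cell cannot be told apart.

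The 7 genes lie in a row on the forward strand of chromosome 17, within 154 kb from the start of H2-Q1 to the end of H2-Q10 (GENCODE vM21, build GRCm38, also called mm10). In order they are H2-Q1 (35320405 to 35325099), H2-Q2 (35342242 to 35346762), H2-Q4 (35379617 to 35385290), H2-Q5 (35394126 to 35397800), H2-Q6 (35424850 to 35430055), H2-Q7 (35439155 to 35443773) and H2-Q10 (35470089 to 35474563). The annotation gives H2-Q5 as a polymorphic pseudogene and the other 6 as protein coding. Their heavy chains are close relatives. The coding sequence of H2-Q10 was 89.6% identical to that of H2-D1, 88.4% to H2-Q4 and 87.8% to H2-K1, and between 85.6% and 87.7% to the other 5 members. H2-Q5 and H2-Q7 were the most alike pair of members at 96.6%, followed by H2-Q6 and H2-Q7 at 95.4%.

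How far a read can be assigned to 1 of these genes depends on where in the transcript it falls. The 60-base coding window in which H2-Q10 differs most from its relatives lies in 1 exon near the start of the coding sequence (GRCm38, chr17:35470386-35470445, forward strand for all genes but H2-K1). It is shown for the 7 members and for 2 classical genes because reads from it can separate H2-Q10 from these relatives, and capitals mark bases that differ from H2-Q10.
H2-Q10: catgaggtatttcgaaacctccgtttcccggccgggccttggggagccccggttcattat
H2-Q4: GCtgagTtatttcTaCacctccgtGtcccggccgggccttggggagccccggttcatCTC
H2-Q2: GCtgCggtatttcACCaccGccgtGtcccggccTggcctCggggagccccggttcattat
H2-Q5: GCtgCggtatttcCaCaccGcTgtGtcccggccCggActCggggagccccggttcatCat
H2-Q1: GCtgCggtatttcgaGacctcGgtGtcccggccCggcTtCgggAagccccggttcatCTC
H2-Q6: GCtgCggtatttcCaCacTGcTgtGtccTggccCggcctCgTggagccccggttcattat
H2-Q7: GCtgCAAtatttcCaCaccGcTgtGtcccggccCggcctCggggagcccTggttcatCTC
H2-D1: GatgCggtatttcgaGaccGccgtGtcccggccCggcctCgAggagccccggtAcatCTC
H2-K1: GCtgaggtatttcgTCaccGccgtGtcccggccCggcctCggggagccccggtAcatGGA
The relatives differed from H2-Q10 at 9 (H2-Q4) to 16 (H2-Q7) of the 60 bases. In the other direction, the window of the coding sequence most alike (chr17:35473226-35473285) was identical in H2-Q10, H2-Q1, H2-Q6, H2-Q7, H2-K1 and H2-D1, and a read lying inside it cannot be assigned to any of the 6. It is shown with the 3 members that differed, again with differing bases in capitals.
H2-Q10: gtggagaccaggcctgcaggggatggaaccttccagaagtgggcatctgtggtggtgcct
H2-Q4: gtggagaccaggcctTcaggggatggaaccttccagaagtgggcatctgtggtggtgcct
H2-Q2: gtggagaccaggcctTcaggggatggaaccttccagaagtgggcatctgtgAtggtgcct
H2-Q5: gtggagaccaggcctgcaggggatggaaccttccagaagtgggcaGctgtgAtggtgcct

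Over whole transcripts, leaving out each member's own retained-intron transcripts, H2-Q10 was the member with the least shared sequence. Of its 2011 distinct stretches of 32 bases, 345 (17.2%) also occurred in an annotated transcript of another gene, led by H2-Q1 (7.51%). The shares were 31.95% for H2-Q1, 31.4% for H2-Q2, 57.2% for H2-Q4, 63.2% for H2-Q5, 50.5% for H2-Q6 and 47.3% for H2-Q7. Not all of this was sharing with class I relatives. The H2-Q4 stretches occurred in 287 other genes, among them Olfr204 (7.6%) and Zfp488 (7.4%), and those of H2-Q6 also occurred in Efr3a (6.5%). The read length is not given in the sources used here, and longer stretches were shared less: at 100 bases the share was 1.93% for H2-Q10, 5.09% for H2-Q2 and between 12.4% and 17.2% for the other 5. Without its retained-intron transcripts, the longest run that H2-Q10 shared without a mismatch was 134 bases, with H2-Q1 and the pseudogene H2-T-ps. H2-Q8, H2-Q9 and H2-L have counts but no gene in this annotation, so sharing with them was not counted and the shares are lower bounds. How reads matching several of these genes were counted is not given in the sources used here.

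**Figure D1:**
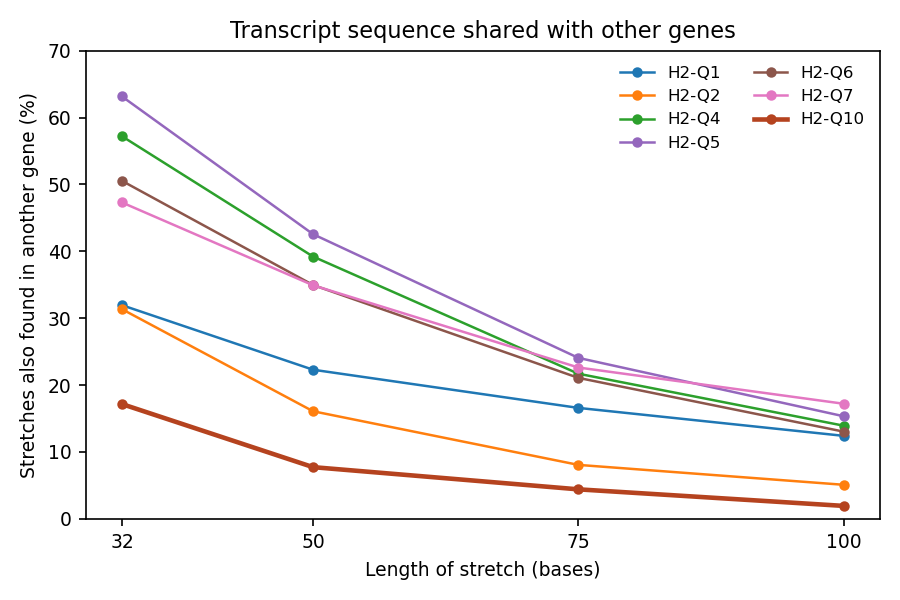
Share of each member's distinct transcript stretches that also occur in another gene (percent, vertical axis), by stretch length in bases (horizontal axis), with 1 line per gene. The member's own retained-intron transcripts were left out. H2-Q10 is the lowest line at every length, from 17.2% at 32 bases to 1.93% at 100 bases.

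H2-Q10, the gene for the secreted heavy chain, measured 13.1 and 12.2 CPM in the normal glucose libraries (replicates 1 and 2), against 111 and 108 CPM in those of high glucose (replicates 2 and 4). The raw counts were 927, 530, 7069 and 8394. Both high glucose libraries were far above both normal glucose libraries, and the libraries of a group lay close together. The means were 12.6 ± 0.635 CPM for normal and 109.6 ± 1.91 CPM for high glucose (SD, n = 2), a ratio of 8.69 and a fitted log2 fold change of 3.12 (SE 0.19). This difference is what chose the gene: its adjusted p was 0.00179 in edgeR's quasi-likelihood test. It was the 1 member of 7 past the threshold of 0.05, against 0.0123% of all genes tested (2 of 16270, both higher, the other being the histone gene Hist1h4d), and nothing is read from that count. Leaving out each library in turn left the log2 fold change of H2-Q10 between 3.07 and 3.17.

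Shares of the class I family use the same H2-Q10 counts, so they restate the difference that chose the gene and add no support. Of all counts of the 31 class I heavy-chain genes named H2-, H2-Q10 took 0.323% in normal glucose replicate 1 (95% Wilson interval 0.303% to 0.345%) and 0.314% in replicate 2 (0.289% to 0.342%). It took 2.66% in high glucose replicate 2 (2.60% to 2.72%) and 1.85% in replicate 4 (1.81% to 1.89%). The high glucose shares lay above the normal glucose shares, and the lower share in high glucose replicate 4 went with more counts of H2-Q1 and H2-Q2 in that library. These intervals cover counting error only. Against the classical gene H2-K1, the count ratio of H2-Q10 was 0.0103 in both normal glucose libraries, and 0.104 and 0.101 in high glucose. Without the retained-intron transcripts of H2-Q10, the longest run that H2-Q10 and H2-K1 shared was 75 bases. With those transcripts kept, H2-K1 also shared stretches of 100 bases with H2-Q10. At 32 bases H2-K1 then shared more stretches with H2-Q10 than with any other gene. Against H2-Q1, the count ratio of H2-Q10 was 0.0667, 0.375, 0.745 and 0.141 in normal 1, normal 2, high 2 and high 4. H2-Q1 shares the most 32-base stretches with H2-Q10 only when the retained-intron transcripts of H2-Q10 are left out. In CPM, H2-Q10 lay close within each group (13.1 and 12.2, then 111 and 108), whereas H2-Q1 did not. How much of the H2-Q10 counts came from reads of relatives was not tested.

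H2-Q1 was at 196 CPM in normal glucose replicate 1, 32.4 in replicate 2, 149 in high glucose replicate 2 and 770.4 in replicate 4. The groups overlapped, and the highest library was 5.17 times its own group's other library. The fitted log2 fold change was 2.01 with an SE of 0.86. Without high glucose replicate 4 it was 0.38, and without normal glucose replicates 1 or 2 it was 3.83 or 1.23. Without high glucose replicate 2 it was 2.76. H2-Q1 did not pass the threshold with all 4 libraries and the filter on low counts (adjusted p = 0.913, edgeR). Without that filter it passed (2.01, adjusted p = 0.0231), in a fit where 127 of 20287 genes did.

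H2-Q2, its neighbour, followed nearly the same order, with normal glucose replicate 1 and high glucose replicate 2 exchanged. Its normal glucose libraries 1 and 2 had 92.6 and 11.6 CPM, and its high glucose libraries 2 and 4 had 117 and 601 CPM. The groups did not overlap, but high glucose replicate 2 was only a little above normal glucose replicate 1. The log2 fold change was 2.78 (SE 0.95, adjusted p = 0.745, edgeR). It was 4.95 without normal glucose replicate 1, 3.53 without high glucose replicate 2 and 1.16 without high glucose replicate 4. With all 4 libraries and no filter on low counts H2-Q2 passed (2.78, adjusted p = 0.00164, edgeR), in the same fit with 127 genes past the threshold.

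H2-Q1 and H2-Q2 moved together from library to library. Within normal glucose the libraries differed by 2.58 (H2-Q1) and 2.94 (H2-Q2) on the scale of log2(CPM + 0.5), and within high glucose by 2.37 and 2.36. Taking for each gene the smaller of its 2 within-group differences, H2-Q1 and H2-Q2 ranked 1 and 2 of the 10437 tested genes with a mean of at least 5 CPM. The next gene, the collagenase Mmp1a, had 1.16, and the median gene had 0.103. This within-group spread was not what the genes were chosen on. Together H2-Q1 and H2-Q2 took 7.14% and 1.14% of the class I counts of the first and second normal glucose libraries, against 6.38% of high glucose replicate 2 and 23.4% of replicate 4. The count ratio of H2-Q2 to H2-Q1 was 0.473 and 0.359 in normal glucose and 0.784 and 0.780 in high glucose, so the ratio was steadier than either gene and did not overlap between groups. H2-Q1 and H2-Q2 share 21.7% of the 32-base stretches of H2-Q1, and how much of their joint movement comes from shared reads was not tested.

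**Figure D2:**
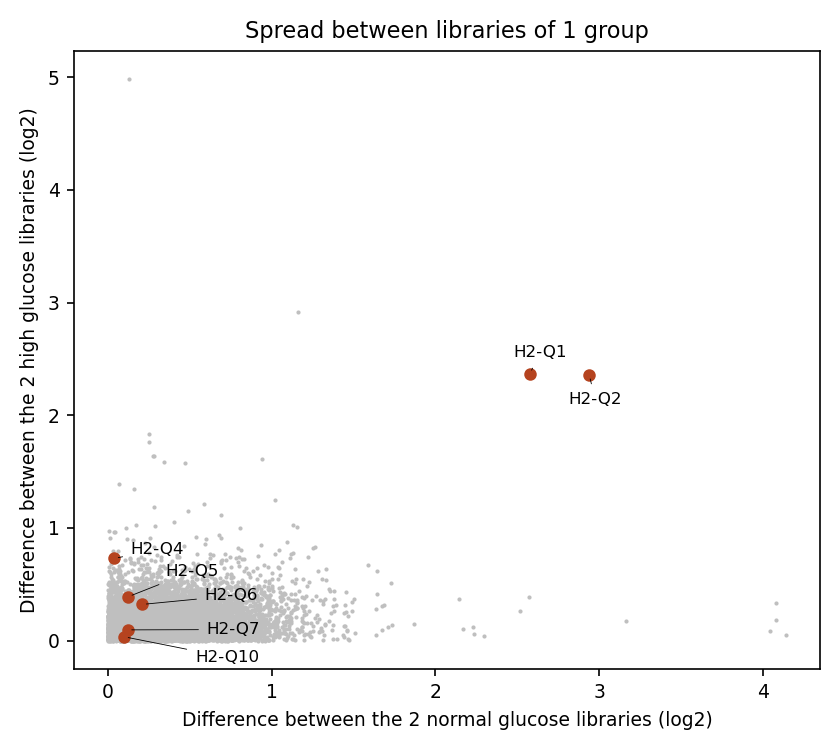
Absolute difference in log2(CPM + 0.5) between the 2 normal glucose libraries (horizontal) and between the 2 high glucose libraries (vertical), for 10437 genes (grey) with the 7 members in red. H2-Q1 and H2-Q2 stand apart from the other genes with differences above 2 on both axes, whereas H2-Q7 and H2-Q10 lie near the origin.

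H2-Q4 was at 232 and 226 CPM in normal glucose and at 287 and 476 CPM in high glucose replicates 2 and 4. The groups did not overlap, and the normal glucose libraries lay within 0.04 of each other on the log2 scale. The log2 fold change was 0.74 (SE 0.25, adjusted p = 0.745, edgeR), and 0.33 without high glucose replicate 4. Without normal glucose replicate 1 it was 0.76. In high glucose, replicate 4 was the upper library for every member but H2-Q10, by 1.07 times for H2-Q7, 1.66 times for H2-Q4 and 5.17 times for H2-Q1. The classical gene H2-D1 was at 664 and 700 CPM in normal glucose and at 662 and 1018 CPM in high glucose, with the same library on top.

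H2-Q5, annotated as a polymorphic pseudogene, measured 55.0 and 59.98 CPM under normal and 82.9 and 109 CPM under high glucose. The log2 fold change was 0.74 (SE 0.20, adjusted p = 0.523, edgeR). The log2 fold change of H2-Q5 was 0.68 and 0.80 without normal glucose replicates 1 and 2. It was 0.93 and 0.53 without high glucose replicates 2 and 4. Its counts carry a particular limit, since 45.3% of its 32-base stretches also occur in H2-Q7.

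H2-Q6 and H2-Q7 are the pair with Qa-2 products. H2-Q6 was at 8.86 and 10.32 CPM in normal glucose and at 18.4 and 23.2 CPM in high glucose, without overlap. Its log2 fold change was 1.12 (SE 0.22), and its adjusted p of 0.399 was the smallest among the 6 members that missed the threshold. It was past the threshold with DESeq2 (adjusted p = 0.00496) and with edgeR's exact test (0.00499), where 74 and 112 of 16270 genes passed. Without a filter on low counts it also passed (edgeR, 0.0147), as did 127 of 20287 genes. With limma-voom it did not (adjusted p = 0.371). Its log2 fold change was 1.01 and 1.23 without normal glucose replicates 1 and 2. Leaving out high glucose replicates 2 and 4 gave 1.28 and 0.94. H2-Q7 measured 189 and 206 CPM under normal and 217 and 232 CPM under high glucose. Here too the groups did not overlap, but the gap was small, and the log2 fold change was 0.18 (SE 0.18, adjusted p = 0.991). It was not past the threshold under any of the 12 alternatives run.

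**Figure D3:**
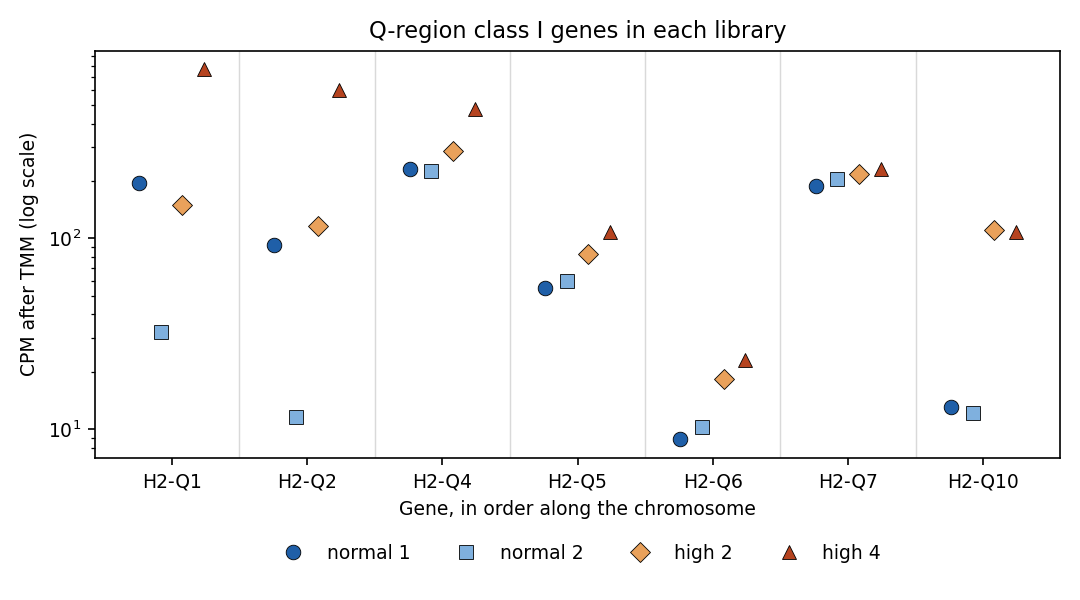
CPM after TMM scaling (log axis) of each Q-region gene, in order along the chromosome, with 1 point per library: circles and squares for normal glucose replicates 1 and 2, diamonds and triangles for high glucose replicates 2 and 4. H2-Q10 falls into 2 tight pairs (13.1 and 12.2 against 111 and 108 CPM), whereas H2-Q1 and H2-Q2 spread widely inside each group.

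In 6 of the 7 members (H2-Q1 being the exception) both high glucose libraries were above both normal glucose libraries, which held for 16.3% of all genes tested. The median log2 fold change of the 7 was 1.12 and that of all genes tested was -0.004. Because the family was chosen with this contrast in view and its members share sequence, these figures describe the members only. Summed, the 7 genes came to 787 and 558 CPM in normal glucose and to 982 and 2320 CPM in high glucose replicates 2 and 4. The sum was higher in both high glucose libraries, with a log2 ratio of the means of 1.30, but 0.55 without high glucose replicate 4. Without H2-Q10 the log2 ratio was 1.22, and 0.40 without that library. Adding the classical, T-region and M-region class I genes, a sum over 29 genes that stays the same if a read is assigned to another of them, gave 3893, 3719, 3993 and 5645 CPM in the same order, a log2 ratio of 0.34, or 0.07 without high glucose replicate 4.

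Levels of different genes were set side by side per kilobase of exon in GENCODE vM21. These lengths may not be those used in counting, since H2-Q8, H2-Q9 and H2-L have counts but no gene there. H2-Q5 had 1038 annotated bases, against 1536 to 2181 for the other members, and shared stretches limit the comparison further. H2-Q7 and H2-Q4 had the highest levels in normal glucose, at 129 ± 7.59 and 128 ± 2.40 CPM per kb (SD, n = 2). These 2 did not differ beyond their spread. H2-Q1 (56.1 ± 56.8) and H2-Q5 (55.4 ± 3.39) followed, then H2-Q2 (23.9 ± 26.3). H2-Q10 (6.33 ± 0.319) and H2-Q6 (4.60 ± 0.496) had the lowest means. The spread of H2-Q2 reached H2-Q1 above it and H2-Q10 and H2-Q6 below it, and in normal glucose replicate 2 H2-Q2 (5.33 CPM per kb) was under H2-Q10 (6.11 CPM per kb). In high glucose the levels were 226 ± 216 for H2-Q1, 213 ± 74.6 for H2-Q4, 165 ± 157 for H2-Q2 and 146 ± 6.91 CPM per kb for H2-Q7, an order not separable beyond the spread. The means of H2-Q5 (92.3 ± 17.6), H2-Q10 (55.0 ± 0.957) and H2-Q6 (9.97 ± 1.61) were lower, but the spreads of H2-Q1 and H2-Q2 reached H2-Q5 and H2-Q10. In high glucose replicate 2, H2-Q5 (79.8 CPM per kb) was above H2-Q1 (73.2) and H2-Q2 (53.6), and H2-Q10 (55.7) was above H2-Q2. The classical gene H2-K1 was at 628 ± 31.01 and 548 ± 0.312 CPM per kb in normal and high glucose.

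The 2 other Q-region symbols with counts, H2-Q8 and H2-Q9, were slightly higher in high glucose without passing the threshold. H2-Q8 was at 113, 112, 126 and 156 CPM (log2 fold change 0.32, SE 0.19), and H2-Q9 was at 35.1, 39.3, 49.0 and 51.1 CPM (0.43, SE 0.18), in the order normal 1, normal 2, high 2, high 4. None of the 3 classical heavy chains passed the threshold. H2-K1 measured 1269 and 1183 CPM under normal and 1070.4 and 1069 CPM under high glucose (log2 fold change -0.20, SE 0.17, adjusted p = 0.991, edgeR). H2-D1 had a log2 fold change of 0.30 (SE 0.23), which was -0.042 without high glucose replicate 4, and H2-L had -0.08 (SE 0.19), which was 0.066 without normal glucose replicate 2.

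Of the 17 tested T-region, M-region and distant class I-like genes, 0 passed the threshold in either direction. Of all genes tested 0.0123% passed, so nothing is read from a count of 0 in this or the other lists. The median log2 fold change of the 17 genes was 0.23. Hfe, a class I-like regulator of iron uptake, had the smallest p of these, at 8.11 and 7.27 CPM against 11.7 and 14.9 CPM (log2 fold change 0.79, SE 0.22, adjusted p = 0.563, edgeR). The T-region gene H2-T22, which shares a run of 103 bases with H2-Q10, had 0.27 (SE 0.19). The peptide-loading list also had 0 of 10 genes past the threshold, with a median of 0.06. B2m, the light chain, measured 5347 and 6146 CPM under normal and 6394 and 5213 CPM under high glucose, with overlapping groups (log2 fold change 0.01, SE 0.18). The peptide transporter genes Tap1 and Tap2 had 0.09 (SE 0.18) and 0.11 (SE 0.20), Tapbp (tapasin) had -0.01 (SE 0.25), and Nlrc5 had -0.01 (SE 0.18), at between 42.2 and 43.1 CPM in all 4 libraries.

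For the immunoproteasome, which cuts peptides for class I, 0 of 5 genes passed (median 0.11). Its activator subunit Psme2 had 0.51 (SE 0.22, adjusted p = 0.913, edgeR), and the catalytic subunits Psmb8 and Psmb9 had 0.19 (SE 0.25) and 0.02 (SE 0.25). Among 19 interferon and NF-kB regulators, 0 passed, against 0.0123% of all genes tested, and the median was -0.002. With so few genes passing, these counts of 0 do not show that a list was unchanged. Irf1, an interferon-induced regulator, had 0.24 (SE 0.19), and the NF-kB subunit Rela had -0.41 (SE 0.29). Class II genes, which present peptides taken up from outside, had 0 of 7 past the threshold (median -0.12), with H2-Ab1 at 35.7 and 33.7 CPM against 20.1 and 24.8 CPM (-0.63, SE 0.20, adjusted p = 0.682).

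**Figure D4:**
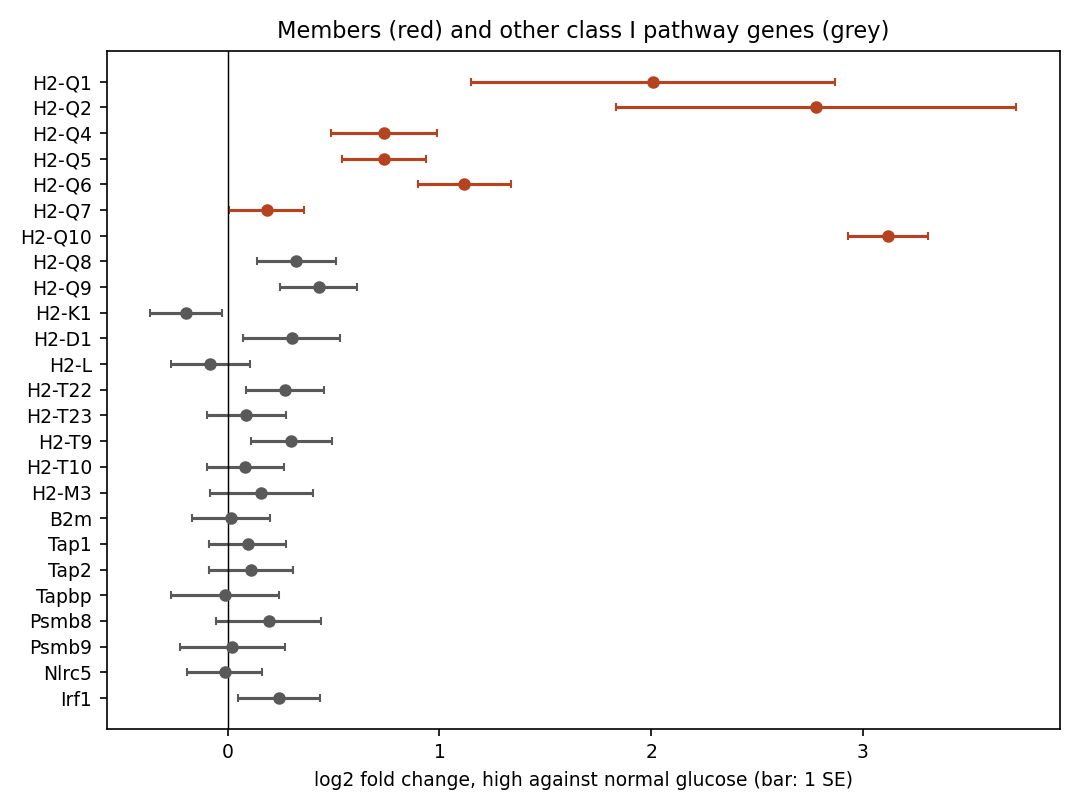
Fitted log2 fold change of high against normal glucose (points) with 1 standard error (bars), for the 7 members in red and other class I pathway genes in grey. H2-Q10 is at 3.12 with a short bar, H2-Q1 and H2-Q2 have long bars, and the grey genes lie between -0.20 and 0.43.

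Of 20 tested genes listed around the Q region that are not class I genes, 0 passed the threshold, against 0.0123% of all genes tested. In this list 4 had a log2 fold change above 0, with a median of -0.14. They ran from -0.55 for Prrc2a, on the side of H2-D1, to 0.48. Beyond H2-Q10, Flot1, a membrane scaffold gene, had 0.36 (SE 0.18) and the collagen receptor Ddr1 had -0.42 (SE 0.28).

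**Figure D5:**
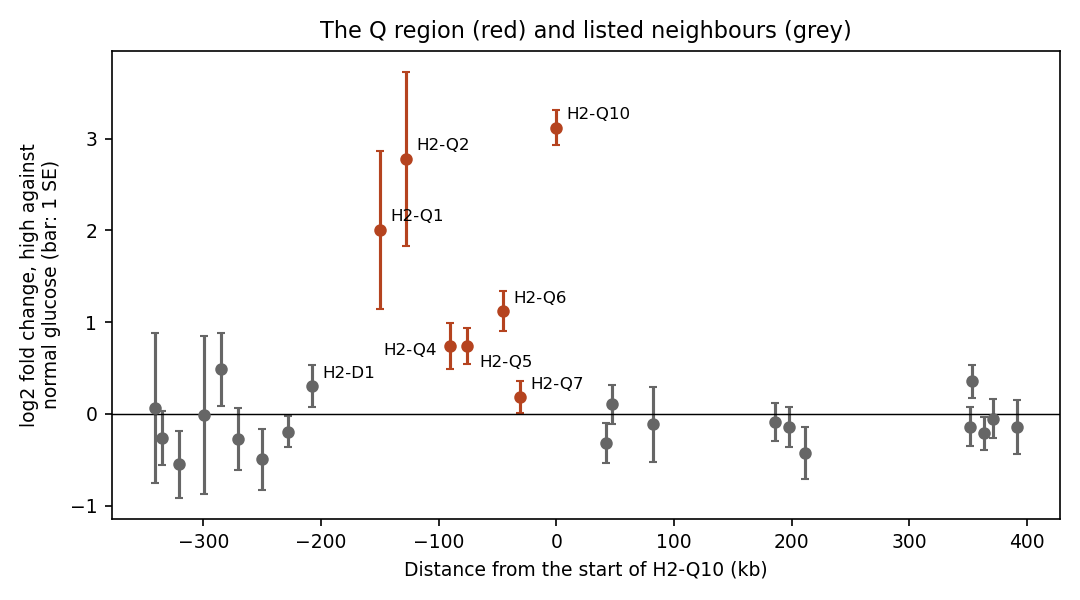
Fitted log2 fold change of high against normal glucose (vertical, bars show 1 standard error) by distance of each gene's start from that of H2-Q10 in kb (horizontal), for the 7 members (red) and 20 listed genes within 400 kb (grey). The grey genes include the class I gene H2-D1, so they are not the same 20 as in the text, and 5 of them lie above 0. The grey genes lie between -0.55 and 0.48, and H2-Q10 at 3.12 is the last red point of the row.

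The promoters were compared by their letters, because class I genes share short elements through which interferon and NF-kB act. RefSeq windows (build GRCm38.p6) matched 5 of the 7 members, and those of H2-Q10, H2-Q4 and H2-Q7 are shown, the member with the highest log2 fold change, an intermediate one and the lowest. Each is the 250 bases before the annotated start, forward strand, with matches on either strand in capitals.
H2-Q10, chr17:35469839-35470088: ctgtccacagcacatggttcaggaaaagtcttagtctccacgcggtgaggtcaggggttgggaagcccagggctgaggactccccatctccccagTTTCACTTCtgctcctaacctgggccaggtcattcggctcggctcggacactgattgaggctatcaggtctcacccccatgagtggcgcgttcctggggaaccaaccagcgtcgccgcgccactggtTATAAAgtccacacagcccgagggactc
H2-Q4, chr17:35379367-35379616: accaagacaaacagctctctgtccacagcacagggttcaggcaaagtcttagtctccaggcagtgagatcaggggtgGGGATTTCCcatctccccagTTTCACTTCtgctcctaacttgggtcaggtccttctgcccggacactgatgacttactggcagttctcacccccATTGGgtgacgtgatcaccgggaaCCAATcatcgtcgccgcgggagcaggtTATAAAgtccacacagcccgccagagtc
H2-Q7, chr17:35438905-35439154: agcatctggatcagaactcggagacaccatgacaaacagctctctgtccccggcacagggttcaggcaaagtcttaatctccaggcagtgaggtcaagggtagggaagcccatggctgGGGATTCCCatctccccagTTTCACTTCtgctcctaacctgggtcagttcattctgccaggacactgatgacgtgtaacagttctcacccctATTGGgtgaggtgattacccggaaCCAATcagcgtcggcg
The motifs searched were GGGATTNCC (the kB-like element of class I promoters), TTTCACTTC (a core of the interferon response element), CCAAT and TATAAA. Of 32851 promoter windows of the same length, 0.822%, 0.402%, 33.9% and 12.4% held them. The H2-Q10 window held TTTCACTTC at -155 and TATAAA at -28, counted from the start, and no match to GGGATTNCC or CCAAT. H2-Q4, H2-Q6 and H2-Q7, like H2-D1, each had GGGATTNCC, TTTCACTTC and CCAAT, with the first at -173 in H2-Q4 and at -132, nearer to the annotated start, in H2-Q7. H2-Q2 held neither GGGATTNCC nor TTTCACTTC. A match is a description of letters and not of binding, and no measurement of binding was made.

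The 5 tested genes most like H2-Q10 over the 4 libraries were all histone genes, by the root mean square distance of log2(CPM + 0.5) centred on the normal glucose mean, among 10437 genes with a mean of at least 5 CPM. Hist1h4d was nearest (distance 0.44), at 0.606, 0.229, 9.87 and 11.3 CPM in normal 1, normal 2, high 2 and high 4. Its fitted log2 fold change was 4.59, against 3.12 for H2-Q10, and its distance depends on the 0.5 CPM added before the logarithm. Hist1h2ac (0.75) was at 2.32, 3.005, 11.8 and 13.1 CPM, followed by Hist1h1e (0.96), Hist1h2be (1.08) and Hist1h2ad (1.08). Hist1h4d was past the threshold (adjusted p = 0.0163, edgeR) and the other 4 were not. All of these but Hist1h2be reached the mean of 5 CPM only through their high glucose libraries. No Q-region gene was among them, and this likeness rests on 4 libraries. It is built on the contrast that chose H2-Q10, so it is a description only. Histone genes have near copies of their own, so their counts carry the same limit on assigning reads.

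Since H2-Q10 is best known from liver, the 10 hepatocyte markers were read beside it. Ttr and Fgb had 0 counts in every library, Ahsg had 1 count in all, and none passed the threshold. Albumin (Alb) had counts of 7 and 8 in the normal against 45 and 65 in the high glucose libraries (log2 fold change 2.50, SE 0.56, adjusted p = 0.445, edgeR), at less than 1 CPM throughout. Transferrin (Trf), which many cell types make, was at 290.2 and 264 CPM against 408 and 392 CPM. Other markers of the list went the other way or overlapped: Cyp2e1 was at 1.07 and 0.918 CPM against 0.643 and 0.619 CPM (log2 fold change -0.66, SE 0.39) and Serpina1a had -0.36 (SE 0.25), both lower without overlap. Apoa2 had 0.08 (SE 0.26) and Apob 0.11 (SE 0.52), with overlapping groups. The list summed to 299.6 and 273 CPM for normal and to 416 and 401 CPM in high glucose, nearly all of it Trf. The 10 leukocyte markers summed to 75.9 and 88.6 CPM under normal and 87.2 and 85.8 CPM under high glucose, with 0 of 8 tested past the threshold. Endothelial (0 of 8) and fibroblast (0 of 8) markers did not pass it either. Of all genes tested 0.0123% passed, so nothing is read from these marker counts. The part of other cell types in the difference of H2-Q10 was not tested.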

How the data were processed

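Each of the 4 libraries has 1 file, in which the authors deposited raw counts by gene symbol. Per the submitters' processing notes the authors used TopHat, edgeR and build mm10. How reads were counted, whether by strand, and what became of reads matching several genes is not given in the sources used here. Rows of a symbol (35 symbols) were summed, and no rows without a gene name entered the tests. Testing used the quasi-likelihood method of edgeR 4.0.16 under R 4.3.3, with TMM scaling, filterByExpr and the group as the only term, two-sided, adjusted by Benjamini-Hochberg over 16270 genes, threshold 0.05. The script was tested on simulated counts. CPM values use TMM library sizes. The common biological coefficient of variation was 20.0%.

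All members were named, with the other Q-region and classical class I symbols, B2m, Tap1, Tap2, Tapbp, Psmb8, Psmb9, Nlrc5 and Irf1. 1 further gene of this rule is not reported here. Each list could add up to 4 further genes by smallest p, and the 5 genes most like H2-Q10 were added. H2-T22, Apoa2, Apob, Ttr, Fgb, Ahsg, Cldn5 and Mmp1a were named after their values were seen. The members and lists were chosen with earlier results of these data known.

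Shared stretches and coordinates come from GENCODE vM21 (22197 of 23238 symbols matched), leaving out a gene's own retained-intron transcripts. Coding sequences were aligned with MAFFT 7.526. Promoters come from RefSeq. Alternatives were other scalings, tests (limma-voom 3.58.1, the exact test of edgeR, DESeq2 1.42.0), no filter, rows kept apart, and leaving out each library.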

Additional observations from a re-analysis of the deposited data

How the results depend on the processing

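H2-Q10 kept a log2 fold change between 3.07 and 3.17 under all 12 alternatives. In those with all 4 libraries it stayed past the threshold, with an adjusted p of at most 0.00215 (edgeR, DESeq2 or limma-voom). These fits reuse the values that chose the gene, so they are a description only. The number of genes past the threshold, 2 with all libraries, was 127 without a filter on low counts (62 higher, 65 lower), 74 with DESeq2 (36 higher, 38 lower) and 112 with edgeR's exact test (56 higher, 56 lower). Leaving out 1 library gave between 32 and 2667 genes, the highest without normal glucose replicate 1, then 157 without normal glucose replicate 2, 36 without high glucose replicate 4 and 32 without high glucose replicate 2. The cause was not tested. In those fits the lone library of a group is assumed to vary like the other group. Without a filter, H2-Q1 (adjusted p = 0.0231) and H2-Q2 (adjusted p = 0.00164) also passed in edgeR. The direction turned for H2-L without normal glucose replicate 2 (log2 fold change 0.066) and for H2-D1 without high glucose replicate 4 (-0.042). Over the 4 fits that left out 1 library, H2-L ran from -0.22 to 0.066 and H2-D1 from -0.042 to 0.59. No other member or classical gene changed direction. Other scalings moved the median of all genes by at most 0.04 on the log2 scale. No paired analysis was possible because a single replicate number, 2, occurs in both groups. With 2 libraries per group, the spread within a group is poorly known. The members' counts ran from 450 to 59743, and the part of depth was not tested.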
